A study of Mus musculus with 5 samples.

Results

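Cxcr6 positive T cells of the mouse liver were taken from 5 single-cell libraries of liver cells from which hepatocytes had been largely removed. Among cells with at least 500 molecules, at least 200 genes and at most 25% mitochondrial molecules, a cell was counted when Cd3e, Cd3d, Cd3g, Trac and Trbc2 gave 3 or more molecules together and Cxcr6 gave 1 or more. It also had to hold no Cd79a or Ms4a1 molecule, under 10 molecules of the Kupffer cell genes Clec4f, Cd5l and Vsig4, and under 10 of the sinusoidal endothelial genes Stab2 and Clec4g. These limits gave 502 cells of 17188 filtered cells, out of 19815 deposited. The mice were wild-type males operated on at 9 weeks of age, by partial ligation of the inferior vena cava (pIVCL, a model of congested liver) or by sham surgery, and sampled 2 weeks later. The sham 1 and sham 2 libraries gave 123 and 165 of the cells, and pIVCL 1, pIVCL 2 and pIVCL 3 gave 59, 70 and 85. The batch label reads 2021.3 for both sham libraries and pIVCL 1 and 2021.7 for pIVCL 2 and pIVCL 3, so the later batch holds pIVCL libraries alone. The labels describe each library as coming from a mouse, without an animal number.

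CXCR6 is the receptor of the chemokine CXCL16, which sinusoidal endothelial cells and macrophages make, and it is known for keeping T cells and innate-like lymphocytes in the liver sinusoids. In mouse liver the lymphocytes that carry it include natural killer T cells, which depend on the transcription factor PLZF (gene Zbtb16), resident memory CD8 T cells, gamma-delta T cells and group 1 innate lymphoid cells. Most of these also use the shared interleukin-2 and interleukin-15 receptor chain encoded by Il2rb.

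The cells held a median of 3331 and 3155 molecules in the sham libraries and of 2682, 2603.5 and 2717 in the pIVCL libraries, so depth was lower in pIVCL. Summed over cells this came to 182399 to 580843 molecules per library. Between 8 and 30 barcodes were shared by each pair of libraries, and 0 of these were Cxcr6 positive T cells in both. Cxcr6 gave a single molecule in 136 of the 502 cells and 2 or more in 366. Exactly 3 T cell molecules were found in 9 of them, and 4 further cells lay just outside that limit with 2. The gate left out 31 cells for Kupffer molecules and 82 for endothelial molecules, 21 and 44 of them from pIVCL 2.

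The name of the cells was checked on its defining markers. Il2rb was detected in 95.6% of the cells, Cd3e in 84.7% and Trac in 80.3%, and the gate itself had used both of the latter genes. An Ncr1 molecule, which encodes the activating receptor NKp46 of natural killer (NK) cells and innate lymphoid cells, was present in 51 of the 502 cells. Of these 51 cells 25.5% held Cd3e, against 91.4% of the other members, and 19.6% held Trac, against 87.1%. Fcer1g, an adaptor chain of Fc and natural cytotoxicity receptors, was present in 98.0% of them against 11.8% of the others, and Gzma (granzyme A) in 66.7% against 4.43%. These cells, 10.2% of the members, carried NK-type genes, less often Cd3e and Trac, and a median of 8 molecules of the T cell genes of the gate. Ncr1 cells numbered 8 of 123 and 18 of 165 in sham, and 7 of 59, 11 of 70 and 7 of 85 in pIVCL. Members with no Cd3e and no Cd3d molecule numbered 10 and 12 in sham and 11, 14 and 9 in pIVCL, of the same totals. Separately, 39 of the 502 cells (10, 8, 2, 11 and 8 in the library order above) had 10 or more molecules of an endothelial, stellate, Kupffer or erythroid list. One such cell of pIVCL 1 held 2343 of the 2394 stellate and fibroblast molecules of that library's members, and one of pIVCL 3 held 414 of 499 erythroid molecules. A stricter gate was added after these cells had been seen. It asked for Cd3e or Cd3d, no Ncr1 and fewer than 10 molecules of each of those lists, and kept 401 cells (103, 137, 47, 46 and 68 in the same library order). It is called the strictest gate here, and the main results are given under both.

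**Figure D1:**
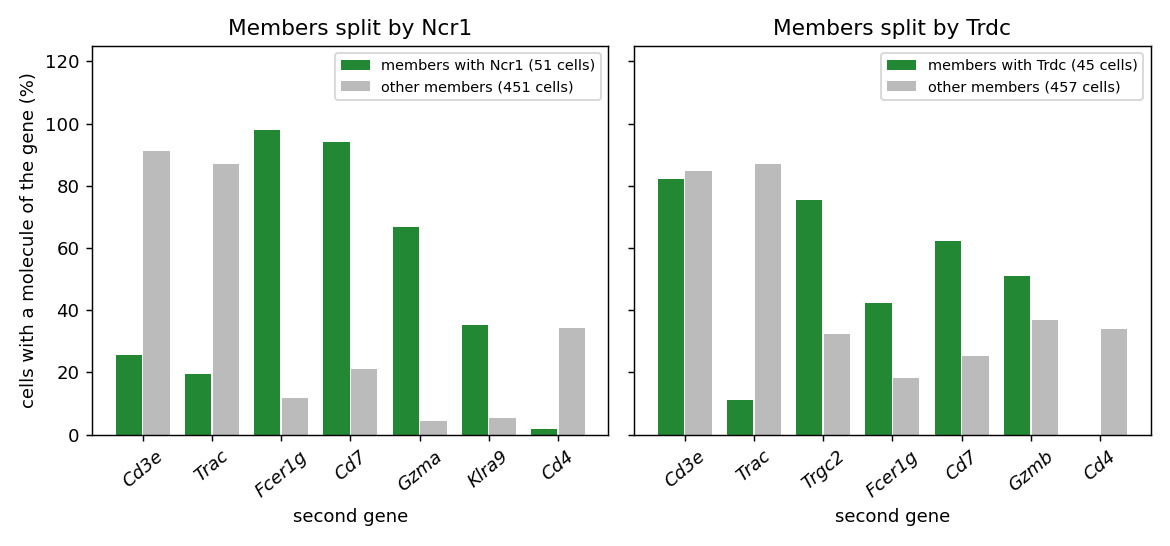
Percentage of Cxcr6 positive T cells with at least 1 molecule of the gene on the x axis (y axis), split by Ncr1 on the left (51 cells against 451 others) and by Trdc on the right (45 cells against 457 others). Cells with Ncr1 had Cd3e in 25.5% and Fcer1g in 98.0%, and cells with Trdc had Trac in 11.1% and Cd3e in 82.2%.

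What set the members apart was described against the 334 liver T cells with no Cxcr6 molecule (42, 52, 38, 86 and 116 per library). The groups were made by the Cxcr6 count itself, so no test is given, and a gene that travels with Cxcr6 or with depth was bound to differ. Levels here are a gene's molecules per 1000000 molecules of the class (CPM), summed over all 5 libraries. Of 6836 genes with at least 50 molecules in both classes together, 595 were higher in the members in all 5 libraries and 432 were lower in all 5.

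The fixed list of coreceptor and unconventional T cell genes did not set the classes apart, at 0.214 to 0.255% of member molecules and 0.196 to 0.261% in the other T cells. Single genes did, and those given here were picked after their values were seen. Zbtb16, which encodes the PLZF factor named above, stood at 172 CPM in the members and 31.5 in T cells without Cxcr6, a ratio of 5.45, and was detected in 32.3% against 5.69% of cells. Its level was 152, 231, 87.7, 156 and 152 CPM in sham 1, sham 2 and pIVCL 1 to 3, and the lowest member library was above the highest library of the other T cells (49.5 CPM). Trgc1, a constant segment of the gamma chain of the T cell receptor, had a ratio of 3.33. P2rx7, the ATP-gated channel known to mark liver-resident T cells, had a ratio of 3.59 and was detected in 47.6% against 13.5% of the cells. Rora, a transcription factor of innate-like and type 2 lymphocytes, had a ratio of 3.00. Among the 20 genes with the highest ratios were also Ckb (creatine kinase B, 3.85), Tnfsf14 (the cytokine LIGHT, 3.41), Mmp9 (a gelatinase, 3.54), Anxa1 (4.85) and Gpnmb, of which 57 molecules lay in members and 1 in the other T cells. Il4, the cytokine that natural killer T cells make quickly, had 44 molecules in the members and 8 in the others.

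The chemokine receptor list took 0.223 to 0.249% of member molecules and 0.126 to 0.165% in T cells without Cxcr6, with Cxcr6 itself part of the list. Il2rb was at 2256 CPM against 1205, and in every library the members were above the other T cells. Ccr2, a receptor for monocyte-attracting chemokines, had a ratio of 2.66 and Cxcr3, the receptor for interferon-induced chemokines, of 1.58. Itga1, the collagen-binding integrin chain CD49a of resident lymphocytes, was at 282 CPM against 110. It was detected in 39.4% of members and 17.4% of the other T cells. B cells had it in 10.7% and endothelial cells in 93.6%, and carry-over of their transcripts was not tested. Another residency marker, Itgae (CD103), had 8 molecules in the members and 26 in the other T cells. Cd69, a marker of activation and residency, was not higher in the members (122 against 194 CPM).

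Genes of naive and recirculating T cells were lower. Ccr7, the lymph node chemokine receptor, was at 11.9 CPM in the members and 167 in the other T cells, and S1pr1, the receptor for leaving tissue into blood, at 37.98 against 277. Klf2, the factor that drives S1pr1, was at 172 against 864 CPM, and the interleukin-7 receptor gene Il7r at 321 against 878. Summed over its genes, the naive and recirculation list took 0.297 to 0.366% of member molecules across the libraries and 0.717 to 0.908% in T cells without Cxcr6. Foxp3, the defining factor of regulatory T cells, gave 0 molecules in 502 cells, which allows a share of cells with a molecule of up to 0.598%, against 72 molecules in the other T cells. Eomes, a factor of NK cells and central memory CD8 T cells, had a ratio of 0.138. The ranges of Ccr7, S1pr1 and Klf2 did not overlap between the classes in the plot of levels with and without Cxcr6.

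**Figure D2:**
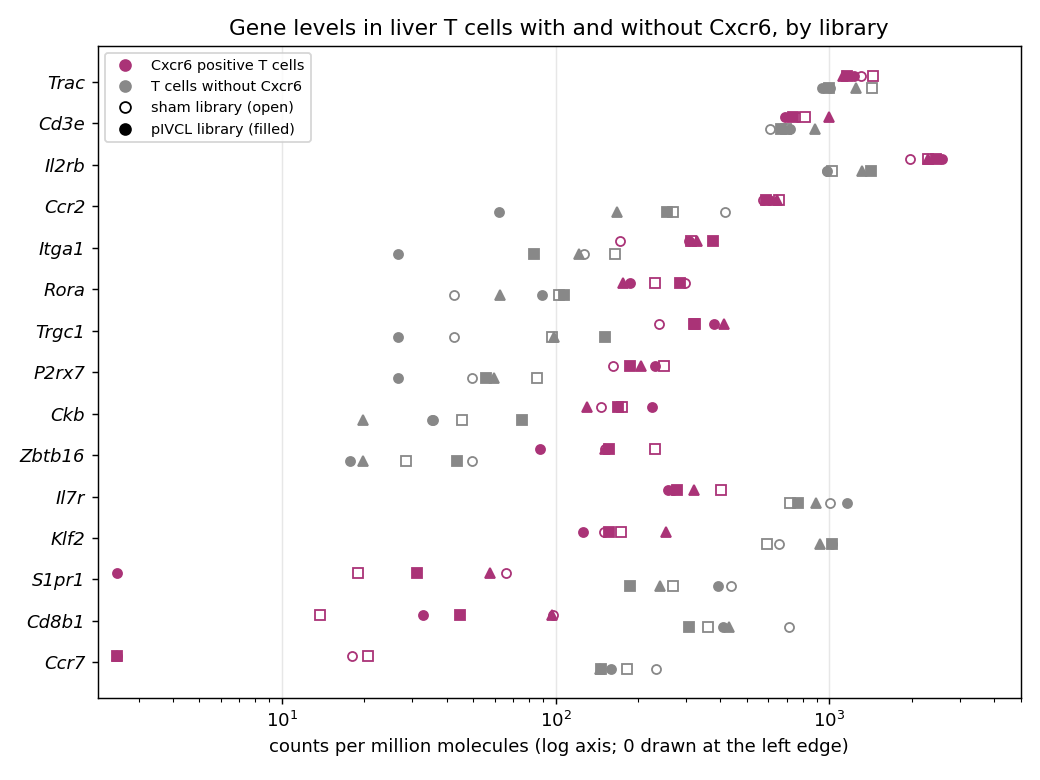
Level of 15 genes in CPM (x axis, logarithmic, 0 drawn at the left edge) in Cxcr6 positive T cells (purple) and T cells without Cxcr6 (grey), 1 point per library, sham open and pIVCL filled. Zbtb16, P2rx7 and Ckb lay higher in all member libraries, S1pr1 and Ccr7 lay lower in all of them, and Trac and Cd3e overlapped.

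By coreceptor the members were mixed. Cd4 without Cd8a or Cd8b1 was detected in 153 cells, Cd8a or Cd8b1 without Cd4 in 36, both in 3 and neither in 310. At a median of 3005 molecules per cell a missing coreceptor molecule does not show a missing protein, and the thinned shares below show how strongly these counts depend on depth. In cells with Cd4, Zbtb16 was detected in 41.8%, the costimulatory receptor gene Icos in 56.2%, Cd40lg in 27.5% and Trac in 95.4%. Gzma was found in 0.654% of the Cd4 cells and Ccl4 in none of the 153. In cells with Cd8, Gzmb (granzyme B) was detected in 63.9%, Gzma in 44.4%, the chemokine gene Ccl4 in 38.9% and Zbtb16 in 2.78%. Fasl did not follow, with 33.3% of Cd8 and 34.0% of Cd4 cells. Fcer1g was detected in 47.2% of Cd8 and 5.88% of Cd4 cells, and Trac in 72.2% of the Cd8 cells. These genes were picked after their values were seen. The Cd8 cells numbered 11 and 4 in sham and 6, 5 and 10 in pIVCL. The Cd4 cells numbered 38 and 52 in sham and 19, 20 and 24 in pIVCL, so surgery was not balanced between the 2 sets. Trdc was detected in 22.2% of the Cd8 cells, in 11.9% of cells with neither coreceptor and in 0 of the 153 Cd4 cells. B cells, which should lack these genes, had Cd8 without Cd4 in 0 of 735 cells, Cd4 without Cd8 in 0.136% and Trdc in 0.136%, at a median of 1729 molecules against 3005 in the members.

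Cells with Trdc, which encodes the constant part of the delta chain, numbered 45. Trac, the matching part of the alpha chain, was found in 11.1% of them and in 87.1% of the other members, while Cd3e was found in 82.2% and 84.9%. Trgc2, a gamma chain constant segment, was present in 75.6% of Trdc cells and 32.4% of the others. Cd7, an adhesion-linked receptor of T and NK cells, was present in 62.2% against 25.2%. Cd4 was found in 0 of the 45, which allows up to 6.67%. Most Trdc cells had Cd3e and no alpha chain molecule, as the plot of cells split by Ncr1 and by Trdc shows. NK cells can also hold Trdc transcripts without a T cell receptor: a molecule was present in 16.7% of the 108 cells of an NK and innate lymphoid gate, and 9 of the 45 Trdc cells here held Ncr1.

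The first comparison between surgeries asked whether these cells and their subsets took other shares of the liver cells after pIVCL. They made up 2.77 and 4.31% of filtered cells in sham 1 and sham 2 and 2.27, 2.01 and 3.00% in pIVCL 1 to 3, and the groups overlapped. The means were 3.54% ± 1.09 (SD, n = 2) and 2.43% ± 0.515 (SD, n = 3), with p = 0.3 in a two-sided exact permutation test, where 0.1 is the smallest p that 2 against 3 libraries can give. T cells without Cxcr6 took 0.946 and 1.36% of filtered cells in sham and 1.46, 2.47 and 4.10% in pIVCL, with no overlap (exact permutation p = 0.2). That difference was 0.309 points within the 2021.3 batch against 1.52 over all libraries. Cell shares rest on what survived dissociation and density gradient, so numbers of cells per liver are not measured.

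Among T cells the share with Cxcr6 was lower in the pIVCL libraries. It was 74.5 and 76.0% in sham and 60.8, 44.9 and 42.3% in pIVCL. Because a shallower cell is less likely to show a Cxcr6 molecule, each cell was thinned to 1000 molecules, which every gated T cell reached. The thinned shares were 47.2 and 46.6% in sham and 42.7, 24.99 and 24.2% in pIVCL (two-sided exact permutation p = 0.2, adjusted p = 0.34 over 17 shares). The groups did not overlap, but the difference was -4.25 points within the 2021.3 batch against -16.3 points over all libraries. The 2 libraries of the later batch carried most of it, and batch and surgery cannot be told apart for them.

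Membership was decided at full depth, so thinning within the members evens depth for the gene counted and not for the gate. Within the members, thinned to the same 1000 molecules, Trdc was found in 3.88 and 5.08% of sham and in 11.1, 9.90 and 11.1% of pIVCL cells. The groups did not overlap, and the difference was 6.62 points within the 2021.3 batch and 6.21 over all libraries. In B cells, thinned the same way, it was 0.0209%. Gzmb stood at 25.2 and 18.4% against 37.4, 35.5 and 32.8%, and both shares had the smallest possible exact permutation p of 0.1 (adjusted p = 0.34). The chemokine gene Ccl4 was found in 1.898 and 1.57% against 8.51, 15.2 and 6.28%, and Gzma in 7.28 and 6.34% against 15.4, 15.9 and 9.41%. Neither overlapped between groups (exact permutation p = 0.2 for each). Ifng, interferon gamma, lay the other way at 3.28 and 4.06% against 2.91, 3.09 and 2.57% (exact permutation p = 0.1), but overlapped under the strictest gate at 3.31 and 3.57% against 1.57, 3.80 and 2.52% (exact permutation p = 0.5). Klrb1c, the receptor NK1.1, overlapped at 38.9 and 39.8% against 38.2, 39.6 and 29.9%, and did not overlap under the strictest gate at 39.6 and 37.4% against 31.3, 35.1 and 26.1% (exact permutation p = 0.2). Coreceptor shares were also apart. Cd4 without Cd8 stood at 12.9 and 14.1% in sham against 19.0, 14.5 and 15.8% in pIVCL. Neither coreceptor was found in 81.0 and 84.1% against 72.8, 79.8 and 74.8% (exact permutation p = 0.2 for each). A lack of overlap was thus not particular to the genes named above. After adjustment over the 17 shares none had a p under 0.34, and 5 libraries could not have given less than 0.1 for any one of them. Under the strictest gate Trdc was found in 2.82 and 3.16% of sham and in 10.01, 13.1 and 12.8% of pIVCL cells, with Gzma at 2.17 and 0% against 4.24, 4.18 and 6.71%. Gzmb was there at 20.8 and 12.0% against 31.1, 23.2 and 29.3% (exact permutation p = 0.2).

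**Figure D3:**
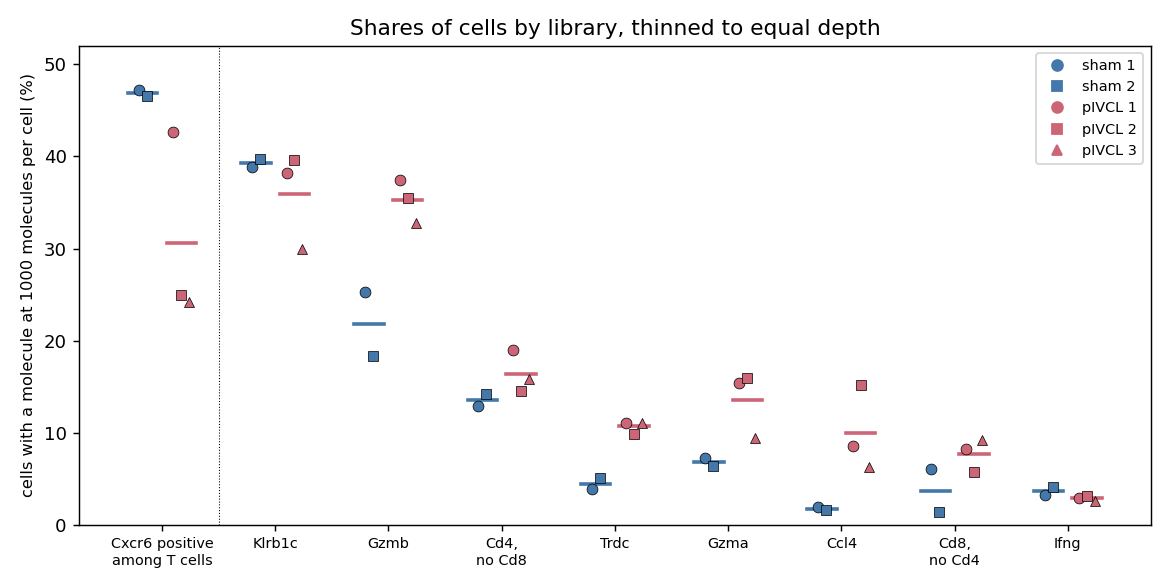
Percentage of cells with a molecule when each cell is thinned to 1000 molecules (y axis), by library (points) with group means (bars), for Cxcr6 among T cells (left of the dotted line) and for genes within Cxcr6 positive T cells (right). Trdc lay at 3.88 and 5.08% in sham and at 9.90 to 11.1% in pIVCL, and Klrb1c overlapped. Cells were gated at full depth before thinning.

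The second comparison was across genes, with the molecules of the members summed per library. Of 5199 genes tested by edgeR's quasi-likelihood test with Benjamini-Hochberg adjustment, 1 passed at 0.05 (0.0192% of the genes), and 491 (9.44%) had an unadjusted p under 0.05. The libraries of the groups did not overlap in 25.6% of all genes. The median log2 fold change over all genes was 0.01. The CPM values of this comparison are scaled between libraries by trimmed means of M values (TMM).

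The gene that passed was Klra9, an inhibitory Ly49 receptor of NK cells and some T cells for MHC class I. It was at 59.9 and 61.9 CPM in sham and 300.2, 262 and 209 CPM in pIVCL, a log2 fold change of 2.06 ± 0.28 (SE) with an edgeR adjusted p of 0.0061. Its molecules sat in few cells: 7 of 123 and 6 of 165 sham cells, and 9 of 59, 9 of 70 and 11 of 85 pIVCL cells. Of these 42 cells 83.3% also held Fcer1g, 64.3% Gzma, 42.9% Ncr1 and 2.38% Cd4. The Ly49 genes are a family of near-identical copies, so reads of one can be counted for another. The summed NK and innate lymphoid marker list, which contains Klra9, Fcer1g and Gzma, took 0.161 and 0.199% of member molecules in sham and 0.302, 0.310 and 0.236% in pIVCL. With Cd3e or Cd3d required and no Ncr1, the estimate for Klra9 was 2.59 ± 1.67 and the edgeR adjusted p was 0.76. Without sham 2 or without pIVCL 2 the adjusted p was 0.084 and 0.17 (edgeR). That setting changed both requirements together, and leaving out the cells with Ncr1 alone was not run.

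Several genes lay close behind without passing in the gate as set. Fcer1g was at 191 and 253 CPM against 676, 577 and 417 (log2 1.31 ± 0.24, edgeR adjusted p = 0.089), and Cd7 at 297 and 501 against 1076, 844 and 948 (1.25 ± 0.23, edgeR adjusted p = 0.089). Trdc was at 79.8 and 137 CPM against 300.2, 224 and 288 (1.31 ± 0.28, edgeR adjusted p = 0.14). No library of one group reached the range of the other in these 3 genes. Genes named by lowest p, Cd7 and Trdc among them, had to meet this condition, which 25.6% of all genes tested met. Fmnl1, a formin of the actin cytoskeleton, and Akna, an AT-hook protein, had estimates of 1.09 ± 0.23 and 0.88 ± 0.19, each with an edgeR adjusted p of 0.14. Fermt2 (kindlin-2, an integrin activator of adherent cells) had 2.04 ± 0.45 (edgeR adjusted p = 0.14) and was not among the genes tested once the mixed cells were left out.

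On the lower side stood Fos, an immediate early transcription factor, at 341 and 531 CPM in sham against 144, 186 and 75.9 in pIVCL (-1.72 ± 0.32, edgeR adjusted p = 0.14). Ly6a, the surface protein Sca-1 of activated lymphocytes, was at 1164 and 818 CPM against 613, 377 and 368 (-1.14 ± 0.24, edgeR adjusted p = 0.14). Dhx9, an RNA helicase, had -1.04 ± 0.23, Hmgn2, a nucleosome-binding protein, -1.42 ± 0.35, and the translation factor gene Eef1b2 -0.76 ± 0.21. None of these passed.

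The strictest gate, and the gate without the 39 mixed cells, gave more calls. Without the mixed cells 12 of 4406 genes passed (0.272%), 10 higher and 2 lower in pIVCL (0.227 and 0.0454%). Under the strictest gate 17 of 4013 passed (0.424%), 14 higher and 3 lower (0.349 and 0.0748%), and 369 genes (9.2%) had an unadjusted p under 0.05. Estimates above 0 made up 49.8% and 49.2% of the genes tested under these gates and 50.5% in the gate as set. Both gates were chosen after the data were seen. Trdc rose under both. Under the strictest gate it was at 67.3 and 81.2 CPM in sham and 316, 359 and 406 CPM in pIVCL, a log2 fold change of 2.28 ± 0.29 with an edgeR adjusted p of 1.26e-06. Its molecules lay in 3 of 103 and 5 of 137 sham cells and in 5 of 47, 7 of 46 and 10 of 68 pIVCL cells. In the gate as set they lay in 6 of 123 and 12 of 165 sham cells. In pIVCL they lay there in 7 of 59, 8 of 70 and 12 of 85 cells, so the strictest gate removed Trdc cells unevenly between the groups. The checks that follow used only cells of the strictest gate and do not test the choice of that gate. The 9 checks run on that gate (each library left out, batch as a term, the 2021.3 batch alone, replicate numbers as a block, and at most 10% mitochondrial molecules) gave log2 values from 1.72 to 2.40, and Trdc passed in 9 of them. In the gate as set, a limit of 10% mitochondrial molecules gave a Trdc estimate of 0.83 ± 0.33 (edgeR adjusted p = 0.56). The members' median mitochondrial share was 9.41 and 9.06% in sham and 8.11, 8.32 and 7.40% in pIVCL. In T cells without Cxcr6 Trdc was at 0 and 137 CPM in sham and 262, 222 and 180 in pIVCL, and the difference between the effects in the 2 classes was -0.40 ± 0.67 in the gate as set and 1.13 ± 0.76 under the strictest gate (edgeR adjusted p = 0.99 for both). The rise is thus not shown to be particular to Cxcr6 positive cells.

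Other genes passed under the strictest gate with less support. Trgc2, the gamma chain segment that most Trdc cells held, was at 382 and 288 CPM against 667, 727 and 576 (log2 0.97 ± 0.23, edgeR adjusted p = 0.035). The NKG2 receptor genes Klrc1 and Klrc2 had 1.06 ± 0.26 and 1.37 ± 0.34 (edgeR adjusted p = 0.047 for both). Icos was at 286 and 342 CPM against 427, 618 and 795 (0.98 ± 0.24, edgeR adjusted p = 0.047), although in pIVCL 3 a single cell held 46 of 145 molecules. Cish, a feedback inhibitor of cytokine signalling, had 1.37 ± 0.31, and Foxp4, a forkhead factor, 2.20 ± 0.48 (edgeR adjusted p = 0.027 for both). Ccl4 passed on few molecules, 0 and 1 in sham against 11, 8 and 7 in pIVCL. Fmnl1 (1.22 ± 0.26) and Akna (0.98 ± 0.22) passed as well (edgeR adjusted p = 0.018 and 0.027). Fos (-2.12 ± 0.46, edgeR adjusted p = 0.048) and Hmgn2 (-1.77 ± 0.40, edgeR adjusted p = 0.027) fell. The third lower call was mt-Nd4l, of the mitochondrial RNA quality list (-0.79 ± 0.18, edgeR adjusted p = 0.035). With batch as a term Fmnl1, Akna and mt-Nd4l did not pass (edgeR adjusted p = 0.57, 0.14 and 0.34). Over the 9 checks Fos ranged from -2.78 without pIVCL 1 to -1.20 in the 2021.3 batch alone, with -1.21 with batch as a term, -1.58 without sham 2, -1.53 without pIVCL 3 and -1.47 with the replicate block. In the 9 checks Trgc2 and Ccl4 passed in 0, Icos, Klrc1 and Hmgn2 in 1 each, Fos, Klrc2 and Cish in 2 each, and Foxp4 in 3. In T cells without Cxcr6, under the gate as set, Fos had -1.43 ± 0.50, Cish 1.63 ± 0.54 and Foxp4 2.16 ± 0.95. None passed there (edgeR adjusted p = 0.70, 0.63 and 0.70). Klrc1, Klrc2 and Trgc2 also had estimates above 0 there, and Icos and Ccl4 below 0 (-0.22 ± 0.31 and -0.03 ± 1.11). The changes in Fos, Cish and Foxp4 are thus not shown to be particular to Cxcr6 positive cells. Transcripts of other cells were also called, the hepatocyte gene Mup20 and the hemoglobin gene Hbb-bs, the latter with 1 and 5 molecules in sham and 4, 11 and 27 in pIVCL. Fcer1g and Cd7, which passed without the mixed cells (edgeR adjusted p = 0.0021 and 0.0013), did not pass under the strictest gate. Their estimates there were larger and less certain, 2.30 ± 0.48 and 2.27 ± 0.93 against 1.45 ± 0.25 and 1.44 ± 0.23 without the mixed cells (edgeR adjusted p = 0.054 and 0.62 under the strictest gate).

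**Figure D4:**
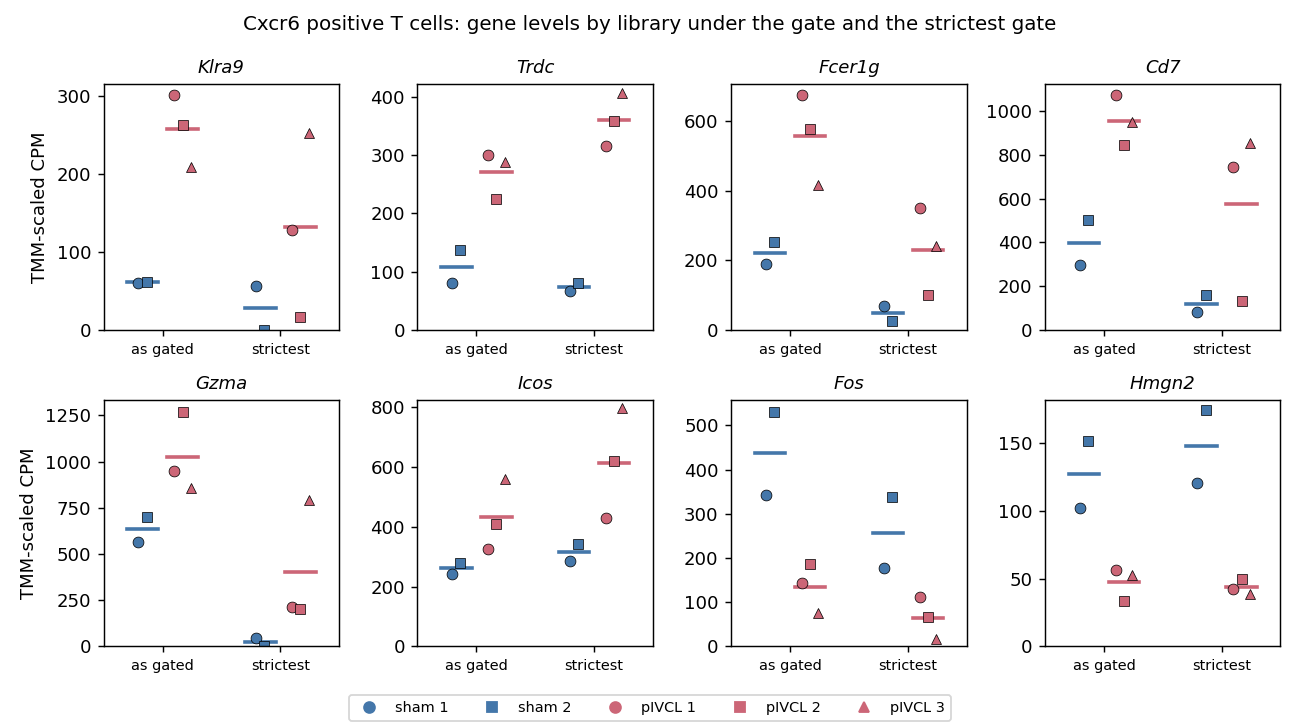
TMM-scaled CPM (y axis, from 0) of 8 genes in Cxcr6 positive T cells by library (points) with group means (bars), for the gate as set and for the strictest gate. Trdc kept its separation (67.3 and 81.2 against 316 to 406 CPM), whereas Klra9 overlapped under the strictest gate (0 and 56.1 against 16.7 to 252 CPM).

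The gene lists were read by role, each against the median of all genes tested (0.01). Of all 5199 genes 1 passed (0.0192%), so 0 passing in a list tells little about that list. Estimates lay above 0 in 50.5% of all genes. These lists were chosen with earlier results of the data known. Of the 20 T cell receptor complex genes 0 passed and the median log2 fold change was 0.06. Trac was at 1444 and 1582 CPM in sham and 1407, 1245 and 1176 in pIVCL. Cd3e, Cd3d, Cd3g, Trac and Trbc2 belong to this list and the gate selected on them, so their levels are a description only. The receptor axis itself did not pass: Cxcr6 was at 1044 and 998 CPM against 1270, 763 and 797, a description only, since the gate selected on it. Cxcr3 was at 233 and 227 against 256, 382 and 304 CPM (0.46 ± 0.22, edgeR adjusted p = 0.54). Of 8 chemokine receptor genes 0 passed (median -0.07). The ligand gene Cxcl16 was at 187 and 199 CPM in sham and 213, 165 and 211 in pIVCL endothelial cells, and at 156 and 177 against 217, 198 and 236 CPM in Kupffer cells, unscaled.

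Among killing genes 0 of 15 passed, with a median of -0.04. Gzmb was at 807 and 606 CPM in sham and 1470, 849 and 831 in pIVCL (0.56 ± 0.26, edgeR adjusted p = 0.52), and Gzma at 568 and 700 against 951, 1269 and 857 (0.69 ± 0.21, edgeR adjusted p = 0.34). Nkg7, a granule membrane protein, was at 1002 and 1026 against 1120, 868 and 986 CPM, and the perforin gene Prf1 had 0.22 ± 0.41. The death ligand gene Fasl had -0.59 ± 0.29 (edgeR adjusted p = 0.54). Of 8 secreted factors 0 passed (median 0.24): Ccl5 was at 1572 and 2092 CPM against 3478, 2061 and 2280, and Ccl4 at 68.7 and 24.4 against 163, 472 and 102 (2.41 ± 0.97, edgeR adjusted p = 0.56). Ifng was at 33.3 and 50.7 against 43.8, 23.9 and 26.6 CPM and overlapped between the groups.

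The NK receptor list had a median of 0.77 over 15 genes tested, the highest outside the marker lists of other cell types. Klra9 passed, 7 of the 15 had libraries that did not overlap (25.6% of all genes), and 7 had an unadjusted p under 0.05 in the higher direction (5.39% of all genes). Klrc1 had 0.79 ± 0.22, Klrc2 0.83 ± 0.29 and Klrb1c -0.21 ± 0.21. Under the strictest gate the median was 1.21 over 14 genes, of which 3 passed, against 0.424% of all genes tested under that gate. The list holds 9 of the 12 NK and innate lymphoid markers whose summed share is given above.

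Proliferation genes had a median of -0.60 over 27 genes, the lowest of the lists in the gate as set. Of these 27 genes 3 lay above 0, against 50.5% of all genes, and 0 passed. Mki67 was at 175 and 118 CPM in sham and 12.5, 28.6 and 121 in pIVCL, so pIVCL 3 reached the sham range. Cells with an Mki67 molecule, unthinned, made up 5.69 and 6.67% in sham and 3.39, 7.14 and 5.88% in pIVCL (exact permutation p = 0.9). The summed proliferation list took 0.51 and 0.36% of member molecules in sham and 0.19, 0.26 and 0.43% in pIVCL, which overlapped. Cytosolic ribosomal protein genes had a median of -0.21 over 43 genes, 7 above 0, and mitochondrial transcripts of -0.26 over 12. Residency genes (median 0.17 over 14) and naive or recirculation genes (-0.17 over 14) had no passing member. Itga1 was at 191 and 340 CPM against 350, 401 and 345, Cd69 at 122 and 126 against 281, 138 and 75.9, and Rgs1 at 257 and 375 against 638, 234 and 269. Of 23 T cell fate factors 0 passed. Zbtb16 was at 169 and 251 CPM against 100, 167 and 159 (-0.54 ± 0.28, edgeR adjusted p = 0.56), Id2, a factor for innate lymphocytes, at 2224 and 2428 against 3171, 3564 and 2967 (0.48 ± 0.18, edgeR adjusted p = 0.41), and Gata3 had -0.44 ± 0.24. Type I interferon genes had a median of 0.21 over 25 genes and interferon gamma and antigen presentation genes of 0.05 over 26, with none passing. Transcripts of endothelial cells took 0.175 and 0.173% of member molecules in sham and 0.657, 0.522 and 0.456% in pIVCL. Without the mixed cells these shares were 0.047 and 0.056% against 0.095, 0.056 and 0.043%.

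**Figure D5:**
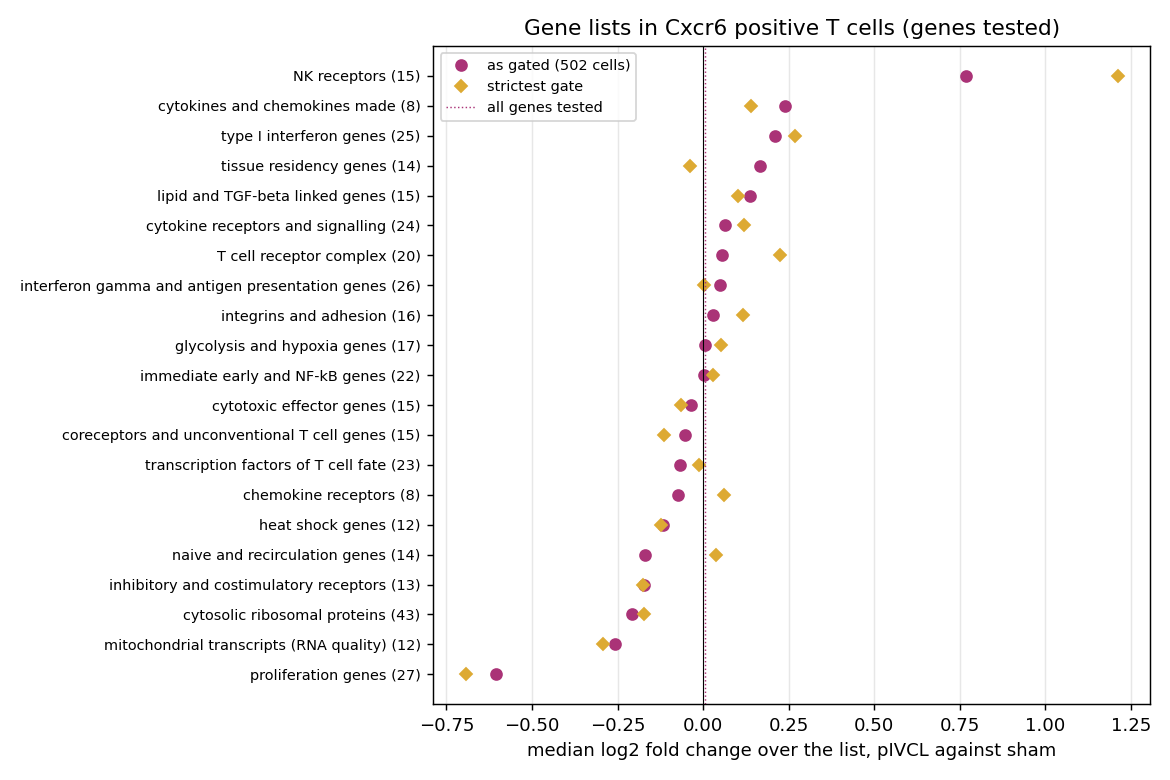
Median log2 fold change of pIVCL against sham over 21 gene lists (x axis, lists of other cell types not drawn) in Cxcr6 positive T cells, for the gate as set (circles) and the strictest gate (diamonds), with the number of genes tested in the gate as set in brackets. Of the lists drawn, NK receptors lay highest (0.77 and 1.21) and proliferation genes lowest (-0.60 and -0.69), and residency, chemokine receptor and naive lists changed sign between the gates.

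The third comparison asked whether the effect of pIVCL differed between T cells with and without Cxcr6, in 1 edgeR fit that paired both classes of each library. In T cells without Cxcr6 0 of 3642 genes passed by edgeR, and 252 had an unadjusted p under 0.05 (6.92%). Of 5518 genes 2 passed for the difference (0.0362%), Clu and Hbb-bt, and 299 had an unadjusted p under 0.05 (5.42%). Among T cells without Cxcr6 in sham 1, 1 cell held 74 of 81 Clu molecules and 1 cell held all 174 Hbb-bt molecules. Without mixed cells 8 of 4391 genes passed (0.182%), neither Clu nor Hbb-bt among them, and 216 (4.92%) had an unadjusted p under 0.05. Ccr2 had a difference of 1.34 ± 0.30 and Cd7 of 1.21 ± 0.27 (edgeR adjusted p = 0.0101 for both), higher in the Cxcr6 positive cells. Lower there were Ptma (-0.73 ± 0.16) and the tubulin gene Tubb5 (-1.23 ± 0.28), both genes of growing and dividing cells (edgeR adjusted p = 0.0101 for both). The MHC class II gene H2-Ab1 had -4.35 ± 0.87 (edgeR adjusted p = 0.0034), but 0.64 ± 2.39 in the gate as set, too uncertain to give a direction. Cd74 likewise had -3.52 ± 0.81 (edgeR adjusted p = 0.013) and 1.22 ± 2.26 in the gate as set. Fabp5 (-5.70 ± 1.36) and Tuba1b (-1.36 ± 0.34) also passed (edgeR adjusted p = 0.023 and 0.040), at -0.83 ± 0.86 and -1.08 ± 0.47 in the gate as set. Under the strictest gate 0 of 3589 genes passed (0%) and 162 had an unadjusted p under 0.05 (4.51%). There Ccr2 had 1.58 ± 0.35 and Tubb5 -1.26 ± 0.29 (edgeR adjusted p = 0.17 and 0.19).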

How the data were processed

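Liver cells of each mouse, depleted of hepatocytes, went through BD Rhapsody whole-transcriptome capture, per the labels' protocols. The authors deposited counts, 1 whole number per gene and cell, of molecules whose identifiers had been error-corrected (RSEC), per the file headers. They came from BD WTA Rhapsody Analysis Pipeline 1.9.1 with GRCm39, per the submitters' processing notes, with the aligner and annotation not given in the sources used here. The members, gene lists and gates were chosen with earlier results of these data known.

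Counts were summed per library over the gated cells and compared by edgeR 4.0.16 (R 4.3.3) quasi-likelihood tests with TMM scaling, filterByExpr and robust dispersion, adjusted by Benjamini-Hochberg over all genes tested at 0.05. Estimates are log2 fold changes ± SE. DESeq2 1.42.0 was an alternative. Shares are exact expectations after thinning to 1000 molecules, compared by two-sided exact permutation over libraries. Limits for a count of 0 cover counting error only. No correction for free RNA was made. Doublets were left in, and the 3% of cells per library with the highest scrublet score (scanpy 1.11.5) were removed as an alternative.

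Nothing says that the libraries of a group came from separate animals, so p-values measure the spread between libraries, which may be technical. On simulated counts for 4803 genes with the members' own spread, the edgeR test recovered 3.33% of 1.5-fold, 33.3% of 2-fold and 78.9% of 4-fold changes, and 17 of 83 calls were unchanged genes, more than the nominal 5%.

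Genes were named from 47 fixed genes (8 of them below the expression filter), passing members of each list, passing genes of the difference between classes, and passing genes with libraries apart. Where fewer than 5 passed in a direction, the 5 of lowest p at a mean log2 CPM of at least 6 were named, leaving out other-cell, quality, gate, histone, ribosomal, receptor-segment and predicted genes. The genes set against T cells without Cxcr6, and those of the added gates, were named after their values were seen. The planned test against NK and innate lymphoid cells was not run, because sham 1 held 6 such cells and at least 10 per library were asked for. Some genes are not reported here.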

Additional observations from a re-analysis of the deposited data

Results flagged for a closer look

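The effect of pIVCL differed between T cells with and without Cxcr6 for Clu (clusterin), by 5.04 ± 0.76 on the log2 scale (edgeR adjusted p = 0.0027), and for the hemoglobin gene Hbb-bt, by 4.92 ± 0.94 (edgeR adjusted p = 0.046). These genes were singled out because their effects in the 2 classes of T cell differed by a test of the difference itself. In sham 1 a single T cell without Cxcr6 held 74 of the 81 Clu molecules of its class, and a single one held all 174 Hbb-bt molecules. In pIVCL 3 a single cell of that class held 131 of 137 Hbb-bt molecules. Neither gene passed when cells with 10 or more molecules of an endothelial, stellate, Kupffer or erythroid list were left out.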

How the results depend on the processing

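The count of genes called in Cxcr6 positive T cells by edgeR (1 as reported) depended on most choices. It was 115 with no expression filter, 17 with DESeq2, 39 with batch as a term and 104 in the 2021.3 batch alone. It was 3 with at least 1000 molecules and at most 10% mitochondrial, 4 without the cells of highest doublet score and 22 with no Kupffer or endothelial gate molecule. With Cd3e or Cd3d and no Ncr1 it was 0 (385 genes at an unadjusted p under 0.05), with 2 or more Cxcr6 molecules 6, without mixed cells 12 and under the strictest gate 17. Leaving out 1 library gave 0 to 76 genes, 0 without sham 2 or without pIVCL 2 (259 and 438 at an unadjusted p under 0.05) and 76 without pIVCL 1. Klra9 passed in 13 of 19 alternatives, with adjusted p from 4.34e-08 to 0.76. The count for the difference from T cells without Cxcr6 (2 as reported) was 40 with no expression filter, 0 with the stricter molecule and mitochondrial limits, 7 with no Kupffer or endothelial gate molecule, 0 with Cd3e or Cd3d and no Ncr1, 8 without mixed cells and 0 under the strictest gate. Leaving out 1 library gave 1 to 13, 1 without pIVCL 1 and 13 without pIVCL 2. The difference in the share with Cxcr6 among T cells was -4.25 points in the 2021.3 batch alone. The causes of these shifts were not tested.

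With replicate number as a block 71 genes passed, 56 higher and 15 lower. The labels share only a number between groups, and same-numbered libraries did not deviate together (correlations of -0.018 and 0.014). Of shares, the difference for Cd4 without Cd8 turned from 2.89 points thinned to -1.53 points unthinned. Leaving out 1 library moved the share with Cd4 and Cd8 between -0.287 and 0.0636 points and the Cd69 share between -0.877 and 7.33 points. Among named genes, the sign differed from the reported one in 73 of 1126 comparisons with an alternative (21 genes), and 0 of those 73 passed by edgeR or DESeq2. Of 508 list medians 48 moved. With 182399 to 580843 molecules per library and 2 sham libraries, changes under 2-fold were seldom recoverable.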
